A study of Mus musculus with 12 samples.

Results

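The genes described here are 9 genes that move ions and water across the lung epithelium at birth, out of 24421 genes listed in each library. They were taken by symbol: the epithelial sodium channel subunits *Scnn1a*, *Scnn1b* and *Scnn1g*, the sodium pump subunit *Atp1b1*, the chloride channel *Cftr*, the chloride-loading cotransporter *Slc12a2*, the ubiquitin ligase *Nedd4l*, and the water channels *Aqp1* and *Aqp4*. RNA from newborn mouse liver and lung was sequenced in 12 libraries, with 3 from wild type (WT) liver, 3 from *Man1a2*-null liver, 3 from WT lung and 3 from *Man1a2*-null lung. The null pups (-/-, allele Man1a2tm1.1Ahe, labelled KO) and the WT pups came from breeding of heterozygotes. The allele removes exon 2 of *Man1a2*, a Golgi mannosidase that trims N-linked glycans, and is not limited to a cell type. All pups were decapitated 30 to 60 minutes after birth, so each library describes the lung or liver soon after the turn from liquid secretion to absorption is due.

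Before birth the lung is filled with liquid that its epithelium secretes. Secretion is driven by chloride, which the cotransporter encoded by *Slc12a2* loads into the cell from the blood side and which leaves through channels such as CFTR on the air side. At birth the direction of transport turns. Sodium enters the cell from the airspace through the epithelial sodium channel, the sodium pump drives it out on the other side, and water follows, partly through aquaporins. The ubiquitin ligase encoded by *Nedd4l* binds the sodium channel and removes it from the cell surface, and the kinase encoded by *Sgk1* holds that ligase back. Mice without the alpha subunit of the channel fail to clear lung liquid and die soon after birth.

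*Scnn1g* and *Scnn1b* lie next to each other on chromosome 7 of GRCm38, both on the plus strand, *Scnn1g* from 121734479 to 121768475 and *Scnn1b* from 121865038 to 121918514, with 96563 bases between them. Both were lower in null lung, as described below, so their promoters are shown side by side, from 250 bases before to 50 bases after each RefSeq start. The sequences are from the RefSeq annotation of GRCm38.p6, plus strand, chr7:121734229-121734528 for *Scnn1g* and chr7:121864788-121865087 for *Scnn1b*, and capitals mark GC boxes, the letters GGGCGG or, on the other strand, CCGCCC.
Scnn1g: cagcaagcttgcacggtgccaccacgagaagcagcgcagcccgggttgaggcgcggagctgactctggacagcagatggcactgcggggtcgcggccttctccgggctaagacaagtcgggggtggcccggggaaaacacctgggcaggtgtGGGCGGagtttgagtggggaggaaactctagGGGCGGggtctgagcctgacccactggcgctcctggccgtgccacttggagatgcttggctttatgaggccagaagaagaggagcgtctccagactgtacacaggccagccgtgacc
Scnn1b: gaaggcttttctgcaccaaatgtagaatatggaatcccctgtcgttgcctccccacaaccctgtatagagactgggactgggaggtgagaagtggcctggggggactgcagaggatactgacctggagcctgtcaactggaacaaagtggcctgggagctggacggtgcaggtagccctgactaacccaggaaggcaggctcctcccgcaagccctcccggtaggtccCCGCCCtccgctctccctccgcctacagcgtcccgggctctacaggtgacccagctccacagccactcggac
The *Scnn1g* promoter held 2 GC boxes and the *Scnn1b* promoter held 1, on the opposite strand. A GC box was present in 35.7% of the 32851 promoters in the RefSeq table. A search of both strands for AGAACA, part of a glucocorticoid receptor site, found no match in either window, against a match in 19.0% of all promoters. Likewise, neither window held TATAAA (13.6% of all promoters), the letters GGAATG of a TEAD site (14.7%) or the letters TGACG of a CRE (20.8%). The GC content was 64.7% for *Scnn1g* and 61.7% for *Scnn1b*, both above the median of 52.7% over all promoters.

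Total counts ranged from 26759463 to 42914295 per library, so that 3 counts corresponded to between 0.0699 and 0.112 CPM, the usual count scaled to library size. The library labelled null lung 1 stood apart. Its correlation with the other lung libraries across genes was 0.787 to 0.815, whereas the other 5 lung libraries correlated with each other at 0.958 or more. *Sftpc*, the most abundant surfactant gene, was at 34.8 CPM in null lung 1 and at 15039 to 20989 CPM in the other lungs, while skeletal muscle markers summed to 13599 CPM against 27.0 to 68.8 CPM and cardiac markers to 20284 CPM against 209 to 576 CPM. The alveolar type 2 cell markers, *Sftpc* included, summed to 163 CPM in null lung 1 against 25633 to 32247 CPM in the other lungs, and the alveolar type 1 cell markers to 510 CPM against 2052 to 3828 CPM. The sums of the airway markers were not low in it. The secretory cell markers summed to 5550 CPM (3380 to 5387 CPM in the other lungs) and the multiciliated cell markers to 315 CPM (184 to 290.4 CPM), although *Scgb1a1*, a secretory cell marker, was at 248 CPM against 1898 to 2680 CPM. Because this library stood apart, lung values are given for 3 WT lungs against null lungs 2 and 3, with null lung 1 shown apart. Null liver 1 also held skeletal muscle RNA (6263 CPM summed, against at most 8.75 CPM in the other livers), and WT liver 2 held 30.7 CPM of *Sftpc* (at most 4.23 CPM in the other livers). Per the study's methods, the RNA of each genotype came from separate newborn mice, so the p-values within a tissue measure the spread between animals. The methods describe liver and lung as taken from 3 mice of each genotype. The main tests between tissues, including the interaction, fitted livers and lungs as independent libraries. *Man1a2* itself, counted over all its exons, was at 137, 99.4 and 141 CPM in the WT lungs, 64.3 and 66.3 CPM in null lungs 2 and 3, and 56.3 CPM in null lung 1. The log2 fold change was -0.95 (SE 0.16, edgeR quasi-likelihood test with Benjamini-Hochberg adjustment, adjusted p = 0.0043). In liver it was 67.4, 40.6 and 52.5 CPM in WT and 40.2, 36.8 and 38.6 CPM in null, a difference that did not pass the test (log2 fold change -0.47, SE 0.17, adjusted p = 0.0809).

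In WT lung the 9 genes spanned a wide range of levels. To compare genes, counts were divided by exon length and scaled to the same total in each library (TPM, the length-corrected counterpart of CPM). *Aqp1*, a water channel of endothelium, was the highest at 2388 to 2536 TPM over the 3 WT lungs, followed by *Atp1b1*, the beta subunit that carries the sodium pump to the membrane, at 995 to 1178 TPM. The channel subunits *Scnn1a* (457 to 490.0 TPM) and *Scnn1g* (382 to 422 TPM) came next, and *Scnn1b* was lower, at 121 to 169 TPM. *Slc12a2* (96.2 to 121 TPM) lay directly under *Scnn1b*, and the lowest WT lung for *Scnn1b* and the highest for *Slc12a2* were at nearly the same level. *Nedd4l* (23.4 to 27.2 TPM), *Cftr* (18.8 to 20.1 TPM) and *Aqp4*, a water channel of airway epithelium (2.83 to 6.24 TPM), were the lowest. No neighbours in this order overlapped. The length used for *Nedd4l*, 17659 bases of merged exons, is the longest of the 9 and lowers its TPM if shorter transcripts are made.

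**Figure D1:**
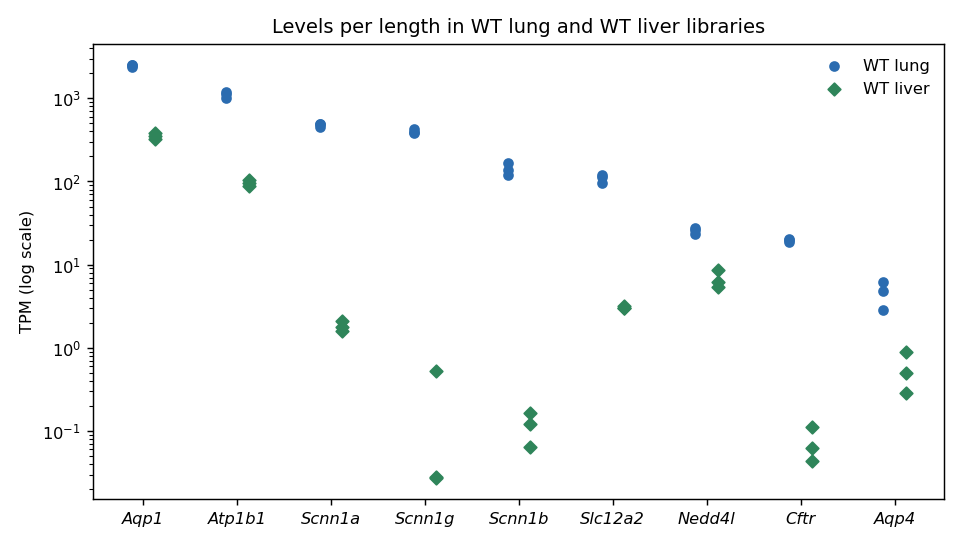
Levels per length (TPM, log axis) of the 9 genes in the 3 WT lung libraries (circles) and the 3 WT liver libraries (diamonds), ordered by their mean in WT lung. Every gene was higher in each WT lung than in any WT liver, from *Aqp1* at 2388 TPM or more in lung to *Aqp4* at 6.24 TPM or less.

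All 9 genes were higher in WT lung than in WT liver. A gene was called when its adjusted p was under 0.05 and its change was at least 1.2-fold, and by this rule 77.0% of the 15635 genes tested were called between the tissues, 39.8% being higher in lung, and 86.5% had groups that did not overlap. The difference was 9.96 on the log2 scale for *Scnn1g* (SE 0.49), 9.15 for *Scnn1b* (SE 0.23), 7.0 for *Cftr* (SE 0.22) and 6.96 for *Scnn1a* (SE 0.17). It was smaller for *Slc12a2* (4.10, SE 0.12), *Atp1b1* (2.44, SE 0.14), *Aqp4* (1.97, SE 0.42), *Aqp1* (1.74, SE 0.16) and *Nedd4l* (0.88, SE 0.15), with adjusted p from 3.83e-09 for *Scnn1a* to 0.00183 for *Aqp4*. *Scnn1g* had 1, 18 and 1 counts in the WT livers, against 8999 to 14108 in the WT lungs. The 18 counts came from WT liver 2, the liver library with lung surfactant RNA, and without it the *Scnn1g* difference was 12.68. *Scnn1b* had 2, 5 and 4 counts and *Cftr* 4, 10 and 6 counts in the WT livers, so these 3 genes were near the limit of detection in liver at this depth.

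The sodium channel subunits did not move together in null lung. *Scnn1b* was 2.84-fold lower and *Scnn1g* 1.34-fold lower, while *Scnn1a* showed no detectable difference. *Scnn1b* was at 90.4, 121 and 98.9 CPM in WT lungs 1 to 3, 35.1 and 37.7 CPM in null lungs 2 and 3, and 3.69 CPM in null lung 1. Both null lungs lay far below the lowest WT lung, and the log2 fold change was -1.51 (SE 0.15, edgeR adjusted p = 0.000814). *Scnn1g* was at 330.0, 312 and 346 CPM in WT, 273 and 220.4 CPM in null lungs 2 and 3, and 4.78 CPM in null lung 1. The null values were again below every WT value, but closer to them (log2 fold change -0.42, SE 0.12, adjusted p = 0.0313). Leaving out any library except null lung 2 ended this call, with adjusted p from 0.0596 to 0.138. *Scnn1a* was at 571, 552 and 518 CPM in WT, 636 and 502 CPM in null lungs 2 and 3, and 48.8 CPM in null lung 1. One null lung was above all WT lungs and the other below them, and the log2 fold change of 0.06 (SE 0.12, adjusted p = 0.741) had an interval from -0.23 to 0.35.

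**Figure D2:**
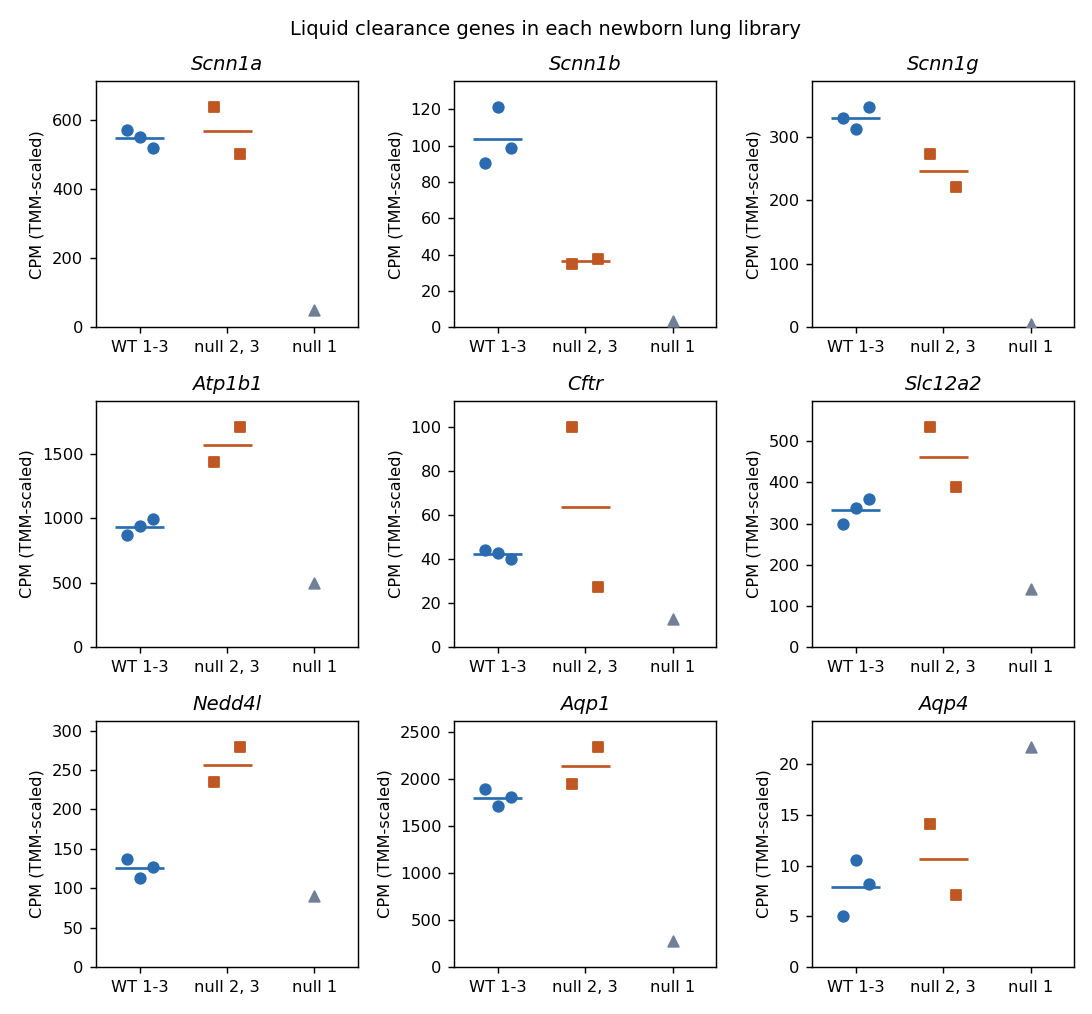
CPM (y axis, starting at 0, scaled by trimmed mean factors) of each of the 9 genes in the 3 WT lungs (circles), null lungs 2 and 3 (squares) and null lung 1 (triangle), with horizontal lines at the means of the WT lungs and of null lungs 2 and 3. *Scnn1b* and *Scnn1g* in null lungs 2 and 3 lie below all WT lungs, *Atp1b1*, *Slc12a2*, *Nedd4l* and *Aqp1* lie above them, and null lung 1 is the lowest library for every gene except *Aqp4*.

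Per length, the make-up of the subunit transcripts differed accordingly. *Scnn1a*, *Scnn1g* and *Scnn1b* made up 45.0 to 48.8%, 36.7 to 41.5% and 12.1 to 16.2% of their summed TPM in WT lungs. In null lung 2 the shares were 59.6%, 35.3% and 5.16%, and in null lung 3 they were 58.0%, 35.2% and 6.83%. The *Scnn1b* share was thus lower in both null lungs than in any WT lung, and the *Scnn1a* share higher. *Scnn1a* exceeded *Scnn1b* 2.90- to 4.02-fold in WT, 11.6-fold in null lung 2 and 8.49-fold in null lung 3. With 3 libraries against 2 these shares were not tested. The summed TPM of the 3 subunits was 995 to 1041 in WT lungs, 804 in null lung 2, 704 in null lung 3 and 48.7 in null lung 1. TPM does not use the trimmed mean factors, which were 1.03 to 1.05 in WT lungs and 0.924 and 0.957 in null lungs 2 and 3. Without these factors the sums of null lungs 2 and 3 come out lower relative to WT than with them. The shares do not depend on the factors. Per length, *Scnn1b* at 41.4 and 48.1 TPM in null lungs 2 and 3 lay beside *Nedd4l* at 41.3 and 53.1 TPM, whereas in WT lung it was above *Nedd4l* in each library. *Scnn1b* overlaps *Cog7* on the opposite strand. The kit marked strand but the strand setting of the counting is not given, so reads of the overlap may have been shared.

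**Figure D3:**
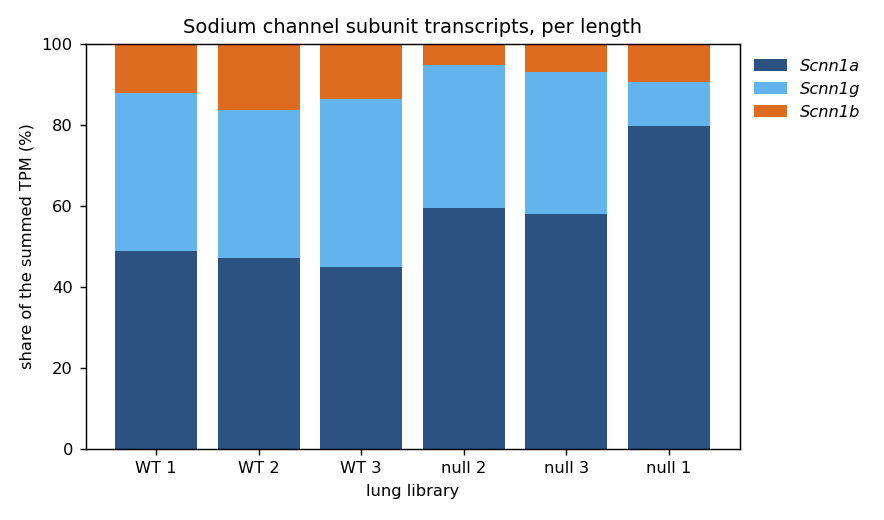
Stacked bars give the share (%) of *Scnn1a*, *Scnn1g* and *Scnn1b* in their summed TPM in each lung library. *Scnn1b* takes 12.1 to 16.2% in WT lungs, 5.16% in null lung 2, 6.83% in null lung 3 and 9.45% in null lung 1, where the sum itself is only 48.7 TPM.

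*Atp1b1*, the sodium pump subunit, was higher in null lung. It was at 871, 938 and 994 CPM in WT, 1436 and 1707 CPM in null lungs 2 and 3, and 498 CPM in null lung 1. Null lungs 2 and 3 did not overlap WT, and the rise was 1.68-fold (log2 fold change 0.75, SE 0.11, adjusted p = 0.0029). *Atp1b1* overlaps *Nme7* on the opposite strand.

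*Nedd4l*, which encodes the ligase that removes the sodium channel from the surface, rose 2.05-fold, the largest rise among the 9. The WT lungs were at 137, 113 and 127 CPM, null lungs 2 and 3 at 235 and 279 CPM, and null lung 1 at 89.7 CPM. Both null lungs were well above every WT lung (log2 fold change 1.03, SE 0.12, adjusted p = 0.00137). Antisense genes overlap it, and whether their reads were counted with those of *Nedd4l* is not known.

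The genes of chloride secretion were less uniform. *Slc12a2* was at 298, 337 and 360.5 CPM in WT, 534 and 389 CPM in null lungs 2 and 3, and 142 CPM in null lung 1. The 2 null lungs were above all WT lungs, null lung 3 by little, and the log2 fold change was 0.48 (SE 0.15, adjusted p = 0.0436). This call was lost without any 1 of the libraries other than null lung 3, at adjusted p from 0.0746 to 0.217, and also under other scalings. *Cftr* was at 43.9, 42.6 and 39.9 CPM in WT, 99.7 CPM in null lung 2, 27.1 CPM in null lung 3 and 12.6 CPM in null lung 1. The WT lungs were tightly grouped while the null lungs lay on either side of them, so that the log2 fold change of 0.59 (SE 0.43, adjusted p = 0.317) had an interval from -0.42 to 1.60. Without null lung 3 the change was 1.26 (adjusted p = 0.00215) and without null lung 2 it was -0.63 (adjusted p = 0.0102), so the direction of *Cftr* rested on which null lung was kept. The antisense gene *Gm15592* overlaps *Cftr*. The ratio of *Scnn1a* to *Cftr* per length was 24.4 in each WT lung, 11.99 in null lung 2 and 34.8 in null lung 3.

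Neither water channel passed the test in lung. *Aqp1* was at 1893, 1710.4 and 1810 CPM in WT, 1949 and 2344 CPM in null lungs 2 and 3, and 271 CPM in null lung 1. The groups did not overlap, but the difference was small (log2 fold change 0.25, SE 0.11, adjusted p = 0.111, interval -0.01 to 0.51), and it passed the test only when null lung 2 was left out (0.38, adjusted p = 0.0304). *Aqp4* was at 5.01, 10.6 and 8.18 CPM in WT, 14.1 and 7.11 CPM in null lungs 2 and 3, and 21.7 CPM in null lung 1, and was the only one of the 9 that was higher in null lung 1 than in every other lung. The groups overlapped without null lung 1, with a log2 fold change of 0.43 (SE 0.37, adjusted p = 0.397, interval -0.43 to 1.28).

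In all, 5 of the 9 genes were called in lung, *Atp1b1*, *Nedd4l* and *Slc12a2* higher and *Scnn1b* and *Scnn1g* lower. Over all 15885 genes tested, 37.0% were called, 18.0% higher and 19.0% lower, and 61.8% had groups that did not overlap. The median log2 fold change of the 9 was 0.43, against -0.01 over all genes. With totals as the only scaling the split of all called genes moved from 48.6% higher to 30.7% higher, and with upper-quartile factors to 38.9%, and the sign of the *Scnn1a* value turned to -0.10 and -0.02. *Scnn1b*, *Atp1b1* and *Nedd4l* were called without each of the 5 libraries in turn. When null lung 1 was counted with the null lungs, 0 of the 9 were called by edgeR, with 1 (*Scnn1b*) at an unadjusted p under 0.05, and 0 by DESeq2. In that fit 0.327% of 15591 genes were called and 25.0% had an unadjusted p under 0.05, and the log2 fold changes were -2.02 for *Scnn1b* (SE 0.77, adjusted p = 0.179), 0.38 for *Atp1b1* (SE 0.45, adjusted p = 0.624) and 0.68 for *Nedd4l* (SE 0.40, adjusted p = 0.334).

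Markers of the cells that use these genes also differed between the lungs. In bulk tissue, fewer cells of a type and less RNA per cell cannot be told apart. Over all genes tested in lung, 18.0% were called higher and 19.0% lower. Counts such as 1 higher and 1 lower of 8 markers are near these shares. Of 6 markers of the alveolar type 1 cell, the flat cell that covers most of the alveolar surface, 5 were lower in null lungs 2 and 3, and their sum was 3644 to 3828 CPM in WT against 2617 CPM and 2052 CPM. *Ager*, the highest of them, was not among the 5, with a log2 fold change of 0.08 (SE 0.14, adjusted p = 0.712). Of 8 markers of the surfactant-making alveolar type 2 cell, 1 was higher and 1 lower, and the sum was 28251 to 32247 CPM in WT against 31630.0 CPM and 25633 CPM. Epithelial markers shared by all these cells rose in 3 of 5 cases, from a sum of 1379 to 1655 CPM in WT to 1912 CPM and 1758 CPM. Among 4 airway secretory markers tested, 2 were higher, with the sum at 3379.6 to 4065 CPM in WT and at 5387 CPM and 3420 CPM in null. Of 6 markers of multiciliated cells, 3 were higher and 1 lower (208 to 290.4 CPM against 194 CPM and 184 CPM), and of 6 endothelial markers, 2 were higher and 1 lower (1950 to 2340 CPM against 2571 CPM and 2086 CPM). Cardiac markers were higher in 5 of 6 cases (209 to 325 CPM against 576 CPM and 447 CPM) and skeletal muscle markers in 4 of 8 (27.0 to 35.0 CPM against 68.8 CPM and 56.3 CPM). Their part in the changes of the 9 genes was not tested.

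In liver, *Nedd4l* was the only one of the 9 genes that was called. It was at 49.3, 33.5 and 35.0 CPM in WT and 66.6, 56.8 and 108 CPM in null, without overlap (as for 46.6% of all genes), and rose 1.96-fold (log2 fold change 0.97, SE 0.26, adjusted p = 0.0294). The call was lost without WT liver 2 (adjusted p = 0.103) or WT liver 3 (adjusted p = 0.108). Over all 14343 genes tested, 26.9% were called. *Atp1b1* was at 88.5 to 105 CPM in WT and 75.3 to 95.2 CPM in null liver, with a log2 fold change of -0.19 (SE 0.13, adjusted p = 0.32). *Aqp1*, at 275 to 330.3 CPM in WT and 255 to 287 CPM in null, gave -0.19 (SE 0.12, adjusted p = 0.284), and *Scnn1a*, at 2.15 to 3.06 CPM in WT and 2.99 to 5.10 CPM in null, gave 0.56 (SE 0.28, adjusted p = 0.167). *Slc12a2* gave 0.14 (SE 0.22, adjusted p = 0.66) and *Aqp4* 0.48 (SE 0.89, adjusted p = 0.708). Both were highest in null liver 1, the liver with skeletal muscle RNA, at 16.9 CPM for *Slc12a2* and 3.98 CPM for *Aqp4*, and without that library the values turned to -0.15 and -1.36. *Scnn1b*, *Scnn1g* and *Cftr* were too low to be tested in liver, with at most 7, 18 and 10 counts in any library. *Scnn1g* had 0 counts in null liver 1, which allows up to 0.0849 CPM. A limit of this kind covers counting error only.

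**Figure D4:**
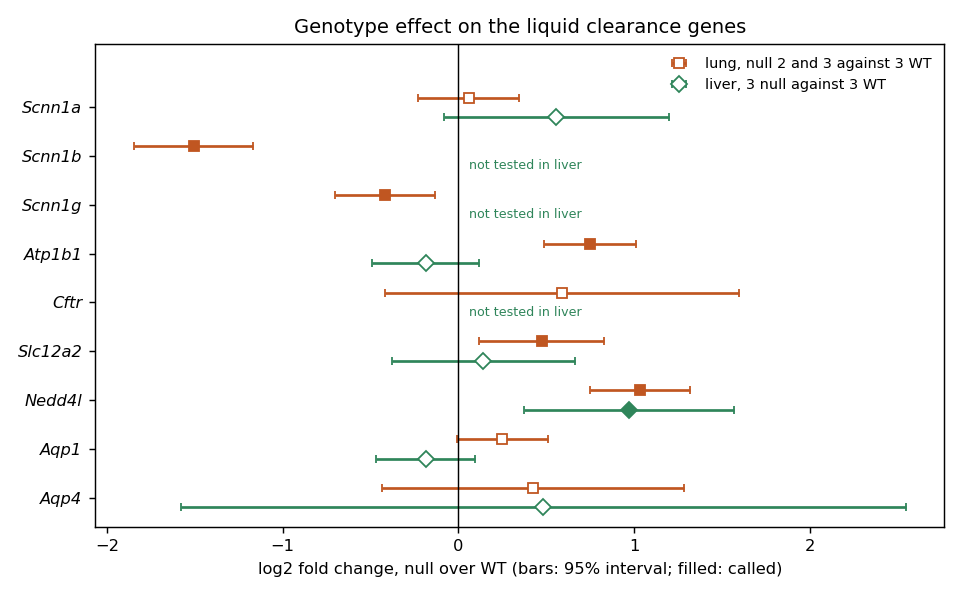
Log2 fold change (x axis, null over WT) of the 9 genes in lung (squares, null lungs 2 and 3 against 3 WT lungs) and in liver (diamonds, 3 against 3), with 95% intervals and filled symbols for called genes. *Nedd4l* is called in both tissues, at 1.03 in lung and 0.97 in liver, whereas *Atp1b1* is at 0.75 in lung and -0.19 in liver.

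Whether the genotype difference itself differed between lung and liver was asked with an interaction term over 11 libraries, without null lung 1. *Atp1b1* was the only one of the 9 that passed, with a difference of 0.96 (SE 0.20, adjusted p = 0.0244), where 5.001% of the 16257 genes tested were called. Same-numbered livers and lungs of a genotype were also taken as pairs, with each pair as a block (the replicate block). Null liver 1, whose lung was left out, then had no partner and added nothing to the difference. This fit thus used every WT pair but only null pairs 2 and 3. In it the *Atp1b1* difference was 1.01 (edgeR adjusted p = 0.0506) and no longer passed. That of *Aqp4*, -0.02 without the block, became 1.75 (adjusted p = 0.0318). For *Aqp4* the block cannot be told apart from the loss of null liver 1, the liver highest in *Aqp4*. The *Atp1b1* call was kept without 5 of the 11 libraries in turn, and lost without WT liver 1 or 2, any of the WT lungs or null lung 3 (0.85 to 1.0, adjusted p from 0.0501 to 0.0834). With null lung 1 included the *Atp1b1* difference was 0.56 (SE 0.50, adjusted p = 0.667), in a fit that called 0.371% of genes. The difference was 0.08 for *Nedd4l* (SE 0.34, adjusted p = 0.924, interval -0.67 to 0.82), -0.48 for *Scnn1a* (SE 0.32, adjusted p = 0.412), 0.36 for *Slc12a2* (SE 0.30, adjusted p = 0.528) and 0.46 for *Aqp1* (SE 0.20, adjusted p = 0.225). For *Scnn1b* it was -1.66 (SE 0.66, edgeR adjusted p = 0.18), for *Scnn1g* 2.21 (SE 1.37, adjusted p = 0.382) and for *Cftr* 0.58 (SE 0.93, adjusted p = 0.764). The values of *Scnn1b*, *Scnn1g* and *Cftr* rest on at most 18 counts in any liver library.

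Other genes of ion and water transport were followed in 6 lists of 51 genes, of which 50 could be tested in lung. There 20 were called, 11 higher and 9 lower, which is near the share over all genes (37.0%). Without WT lung 3 the count was 11, and with null lung 1 counted in it was 0 by edgeR (10 at an unadjusted p under 0.05) and 4 by DESeq2. In the list of hormone and kinase control, 6 of 12 were called, 4 higher and 2 lower. *Sgk1*, the kinase that restrains the *Nedd4l* product, was at 230, 318 and 320 CPM in WT and 758 and 599 CPM in null lungs 2 and 3, with 199.9 CPM in null lung 1. It rose 2.35-fold (log2 fold change 1.23, SE 0.17, adjusted p = 0.00224). *Usp2*, a deubiquitinase that acts on the sodium channel, rose from 8.90 to 10.3 CPM in WT to 16.2 and 21.9 CPM (1.0, SE 0.17, adjusted p = 0.00478). *Tsc22d3*, a glucocorticoid-induced gene, rose from 211 to 257 CPM to 347 and 571 CPM (0.98, SE 0.20, adjusted p = 0.00838). *Wnk4*, a kinase that controls chloride cotransporters, fell from 10.9 to 11.5 CPM to 5.77 and 5.63 CPM (-0.96, SE 0.16, adjusted p = 0.00399). *Sgk1* and its target *Nedd4l* were thus both higher in null lungs 2 and 3.

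Among 13 other genes of chloride and bicarbonate transport, 3 were higher and 5 lower in null lungs 2 and 3. Over all genes tested in lung, 18.0% were called higher and 19.0% lower. *Ano1*, a calcium-activated chloride channel, was at 165, 182 and 210.0 CPM in WT, 92.6 and 62.6 CPM in null lungs 2 and 3, and 25.9 CPM in null lung 1. This fall of 2.39-fold was the largest of the abundant genes of the lists (log2 fold change -1.26, SE 0.19, adjusted p = 0.00263). *Slc26a9*, a chloride transporter of airway epithelium, fell from 35.6 to 48.0 CPM to 24.6 and 24.4 CPM (-0.83, SE 0.15, adjusted p = 0.00622), and *Car2*, a carbonic anhydrase, from 196 to 209 CPM to 128 and 144 CPM (-0.58, SE 0.10, adjusted p = 0.00517). *Lrrc8a*, a subunit of the volume-regulated anion channel, rose from 61.1 to 66.9 CPM to 106 and 126 CPM (0.84, SE 0.11, adjusted p = 0.00172).

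Of 5 potassium channel genes, 1 was higher and 2 lower in lung, where 18.0% of all genes tested were called higher and 19.0% lower. *Kcnq1*, a potassium channel of epithelium and heart, was at 12.2 to 19.0 CPM in WT and 32.7 and 23.2 CPM in null lungs 2 and 3 (0.88, SE 0.22, adjusted p = 0.0189). Whether reads of the antisense *Kcnq1ot1* were counted with it is not known. *Kcne2*, one of its accessory subunits, fell from 57.2 to 78.4 CPM to 36.2 and 37.6 CPM (-0.83, SE 0.15, adjusted p = 0.006). Only 1 of 9 sodium pump partners (higher), 1 of 7 proteases and inhibitors that act on the sodium channel (*Furin*, higher) and 1 of 4 other aquaporins tested (*Aqp3*, higher) were called; *Furin* and *Aqp3* fell outside the rule for named genes and were chosen after their values were seen.

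**Figure D5:**
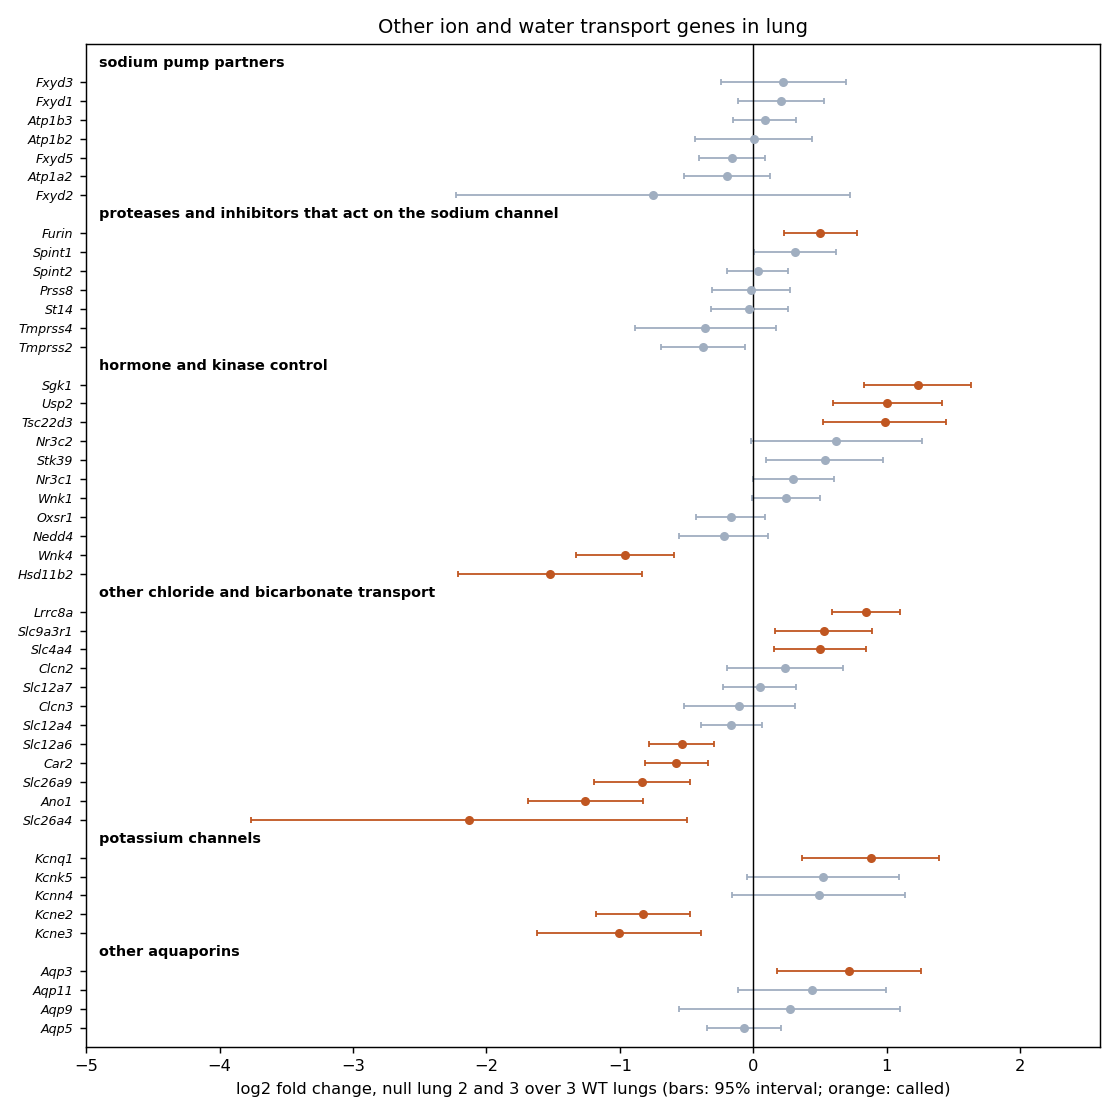
Log2 fold change (x axis, null lungs 2 and 3 over 3 WT lungs, with 95% intervals) of 46 of the 50 other transport genes tested in lung, grouped by list, with called genes in orange. The 9 genes shown as higher include *Sgk1* at 1.23 and *Lrrc8a* at 0.84, and the 9 shown as lower include *Ano1* at -1.26 and *Wnk4* at -0.96.

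In liver, 14 of 44 genes tested from the same lists were called, 10 higher and 4 lower, against 13.5% higher and 13.4% lower over all genes, and leaving out a WT liver lowered this to 7 or 8. *Aqp8*, a water channel of hepatocytes, was at 24.3, 31.3 and 27.4 CPM in WT liver and 227, 142 and 125 CPM in null liver. All null livers were far above WT, and the rise of 5.95-fold was the largest among those named (log2 fold change 2.57, SE 0.24, adjusted p = 0.00201). *Lrrc8a* (1.2, SE 0.30, adjusted p = 0.0254) and *Tsc22d3* (1.16, SE 0.21, adjusted p = 0.0083) were higher in liver as in lung, and *Wnk4* was lower (-0.80, SE 0.18, adjusted p = 0.0181). The protease *Tmprss2* rose from 12.8 to 14.5 CPM to between 17.8 and 44.2 CPM (1.18, SE 0.29, adjusted p = 0.0235). *Slc12a7*, a potassium-chloride cotransporter, fell from 38.1 to 43.4 CPM to between 17.5 and 18.7 CPM (-1.16, SE 0.09, adjusted p = 0.00201). The bicarbonate cotransporter *Slc4a4* fell by 0.65 on the log2 scale (SE 0.13, adjusted p = 0.01). The genotype effect differed between the tissues for 5 of the 51 list genes tested (5.001% of all genes), and for 1 of 51 (0.371% of all genes) with null lung 1 included. Of the genes named here, 3 were among the 5, and with null lung 1 included only *Slc12a7* was called (adjusted p = 0.0189), *Tmprss2* (adjusted p = 0.187) and *Slc4a4* (adjusted p = 0.105) not. *Tmprss2* was higher in null liver and not in null lung (lung minus liver -1.53, SE 0.38, adjusted p = 0.0462). *Slc12a7* (1.22, SE 0.13, adjusted p = 0.00248) and *Slc4a4* (1.17, SE 0.21, adjusted p = 0.0141) were lower in null liver and not in null lung.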

How the data were processed

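RNA-seq libraries were made from poly-A RNA of newborn liver and lung with a strand-marking kit. The authors deposited 1 table of raw read counts per gene for each of the 12 libraries. According to the submitters' processing notes, reads were handled with FastQC, STAR 2.5.2a, the build mm10 and DESeq2. The counting program, its annotation and its strand setting are not given in the sources used here. Counts were fitted with edgeR 4.0.16 (quasi-likelihood test, TMM factors, filterByExpr) in R 4.3.3, within lung, within liver, between WT tissues, and with an interaction term. P-values were adjusted by Benjamini-Hochberg over all genes tested, and the null lung 1 library was kept out of the main lung fits. CPM values are TMM-scaled within a tissue, except marker values, which are CPM of the library total. Fold changes of the pathway genes and 95% intervals come from the same fits.

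Positions and exon lengths came from GENCODE M21 (GRCm38), matched by symbol for 95.6% of listed genes, and 27 names that a spreadsheet had turned into dates were left as they are. Groups and replicate numbers came from the labels. No pair of replicates agreed within sampling noise. Liver and lung of the same number correlated in their deviations from the group means (0.206 to 0.293 in WT, 0.395 to 0.488 in null). The null lung mean used here included the library kept out of the main lung fits. That library and the null liver of its number both held skeletal muscle RNA. The null values therefore cannot show whether the numbers pair pups. The numbers were taken to pair the tissues, which for the null libraries is an assumption.

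The 9 genes, the lists and the separation of null lung 1 were chosen with earlier results of these data known. Named list genes are, per tissue, up to 5 with the largest rise and up to 5 with the largest fall among those called, where the mean log2 CPM was 1 or more and the genotypes did not overlap. Some genes of these lists are not reported here by name, but are in the counts. Marker lists are named by their sums and highest gene. Alternatives were DESeq2 1.42.0, RLE, upper-quartile and trimmed TMM factors, library totals alone, minimum counts of 1 or 10, no minimum fold, 1 fit over 12 libraries, leaving out each library, and the replicate block.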

Additional observations from a re-analysis of the deposited data

Results flagged for a closer look

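The genotype effect on *Atp1b1* differed between the tissues by an interaction term, at 0.96 on the log2 scale (lung minus liver, SE 0.20, edgeR adjusted p = 0.0244), and it did not pass with the replicate block (adjusted p = 0.0506). It was higher in 2 of 2 null lungs than in any WT lung, and the livers overlapped.

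*Aqp4* in null lung 1, a library outside the lung comparison, was at 21.7 CPM, above every WT lung (5.01 to 10.6 CPM). In the same library the skeletal muscle markers summed to 13599 CPM and the cardiac markers to 20284 CPM. The airway secretory cell markers summed to 5550 CPM and the multiciliated cell markers to 315 CPM, and each of these sums was the highest of all lung libraries. *Aqp4* was also highest among livers in null liver 1 (3.98 CPM), the liver with skeletal muscle RNA at 6263 CPM. The part of muscle or airway RNA in these *Aqp4* values was not tested. Groups of 3 libraries were too small to test for a library far from the others.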

How the results depend on the processing

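DESeq2, the other scaling factors and the other filters left the number of the 9 genes called in lung, in liver and for the interaction within 1.5 times. With all 12 libraries in 1 fit, 3 of the 9 were called in lung (*Scnn1g* adjusted p = 0.525, *Slc12a2* adjusted p = 0.147) and 12 of the list genes. With null lung 1 counted as null, edgeR called 0 of the 9, 0 list genes and 51 genes in all, and 0 for the interaction (0 of 9 at an unadjusted p under 0.05), while DESeq2 called 0, 4, 2355 and 0. In those fits *Scnn1a* turned to -0.47 (edgeR) and -0.44 (DESeq2), *Aqp1* to -0.25 and -0.22, and the interaction values to -0.046 and -0.016 for *Slc12a2*, -0.29 and -0.28 for *Nedd4l*, -0.060 and -0.041 for *Aqp1*, and 0.37 and 0.43 for *Aqp4*. *Scnn1a* in lung also turned with upper-quartile factors (-0.018) and totals (-0.10), and *Slc12a2* lost its call there (adjusted p = 0.0774 and 0.12). Totals alone moved the median of all genes by -0.16 in lung, -0.11 in liver and 0.83 between tissues, where the share of higher calls went from 51.7% to 77.2%; in liver it went from 50.1% to 31.9%, or 35.0% with upper-quartile factors. The interaction for *Aqp4* was 0.000509 with DESeq2 and 1.75 with the replicate block, to which null liver 1 adds nothing. At a minimum of 10 counts *Scnn1b*, *Scnn1g* and *Cftr* dropped out of the tissue comparison.

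Leaving out 1 library at a time gave 3 to 6 of the 9 in lung (3 without any of the WT lungs), 11 to 19 list genes and 3457 (without WT lung 3) to 5397 genes. In liver it gave 0 to 1, 7 to 16 and 1641 to 3451, where the lowest values came without WT livers, and for the interaction 0 to 1. All 9 stayed called between tissues. In lung the ranges were -0.12 to 0.24 for *Scnn1a*, -0.63 to 1.26 for *Cftr* and -0.15 to 0.86 for *Aqp4*. In liver they were -0.15 to 0.32 for *Slc12a2* and -1.36 to 1.05 for *Aqp4*, and for the interaction -0.11 to 0.40 for *Nedd4l* and -0.62 to 1.79 for *Aqp4*. Where 1 null lung remained, it was assumed to vary like the others.

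WT and null samples of the same number deviated together little or not at all (-0.05 to 0.15 in both tissues), and were not paired in the main fits. The null lung mean included null lung 1, so the check could not exclude a shared litter or batch. When the number was used as a block between WT and null, WT lung 1 had no partner and added nothing. *Slc12a2* in lung then lost its call (0.39, edgeR adjusted p = 0.0727), as it did with WT lung 1 left out and no block. *Aqp4* in liver was -0.22, and no other call of the 9 within a tissue changed. Depth limits *Scnn1b*, *Scnn1g* and *Cftr* in liver, where no library held more than 18 counts.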

Other observations

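Over all 12 libraries, the genes whose log2(CPM + 0.5) was most like that of each of the 9 were sought among 10787 genes whose WT lung mean reached 3 log2 CPM, as a description in which the tissue difference and null lung 1 weigh heavily. *Scnn1g* was most like *Lgi3*, *Cdkn2b* and *Aqp5* (Pearson r 0.999, 0.998 and 0.998), of which *Aqp5* is a water channel of alveolar epithelium. *Scnn1b* was most like *Kcnj13*, *Trpm6* and *Ripply3* (0.998, 0.998 and 0.997), the former pair being cation channels. *Scnn1a* was most like *Irx5*, *Dnajc8* and *Rprm* (0.998, 0.998 and 0.997). *Slc12a2* and *Atp1b1* shared the proton pump subunit gene *Atp6v1c2* (0.998 and 0.995). *Slc12a2* was also like *Hey1* and *Ezr* (0.997 and 0.997), and *Atp1b1* like *Cadps2* and *Stx12* (0.995 and 0.995). *Cftr* was most like *Piezo2*, *Arhgap29* and *Adgrl2* (0.998, 0.997 and 0.996), and *Aqp1* like *Cmklr1*, *Atp8a1* and *Tmem243* (0.993, 0.992 and 0.991). *Nedd4l*, the member with the smallest tissue difference, had the lowest leading correlation of the 9, with *Bambi*, *Son* and *Mafk* at 0.985, 0.983 and 0.982. *Aqp4* was most like *Lrrc17*, *Cma1* and *Fndc1* (0.987, 0.978 and 0.976).

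Of the marker lists not described above, hepatocyte genes summed to 36.6 to 599.7 CPM in WT lungs and to 568 and 201 CPM in null lungs 2 and 3, with 0 of 6 called by edgeR and 0 at an unadjusted p under 0.05. Bile duct markers, which share *Epcam* and *Krt19* with the epithelial list, were higher in 2 and lower in 2 of 6 cases in null lungs 2 and 3 (1009 to 1279 CPM in WT against 742 and 910.0 CPM). Over all genes tested in lung the shares were 18.0% higher and 19.0% lower. Of 3 red cell genes tested in lung, edgeR called 0, with 1 at an unadjusted p under 0.05. The adult haemoglobin genes *Hba-a1*, *Hba-a2*, *Hbb-bs* and *Hbb-bt* are listed at or near 0 although *Slc4a1*, a red cell gene, reached 1789 CPM in null liver 2.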
